A study of Mus musculus with 10 samples.

Results

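The genes described here encode the nuclear subunits of the mitochondrial respiratory chain and of ATP synthase, measured in the livers of mice that lack both macroH2A genes and of wild-type mice. They were taken as every gene whose probe sets carry a single symbol beginning with Nduf, Uqcr, Cox4i, Cox5, Cox6, Cox7, Cox8 or Atp5, together with Cyc1 and Cycs, and complex II was left out. This gave 87 of the 22180 genes that had their own probe set, on 100 of the 25335 probe sets tested. By role they were 32 subunits of complex I, 8 assembly factors of complex I, 9 genes of complex III and cytochrome c, 19 genes of complex IV, 17 subunits of ATP synthase and 2 pseudogenes. The symbols Cox6c, Ndufb2, Ndufb4, Ndufb4b, Ndufb4c, Ndufs5-ps, Ndufs6, Ndufs6b and Uqcr10 lay only on probe sets shared with other genes and were not analysed here.

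All 10 livers came from males of the strain 129/S6 (taconic), aged 2 months, on low fat chow and then fasted overnight for about 16 h. The 5 control livers were wild type, and the other 5 were from macroH2A1 macroH2A2 double knockout animals, which lack a pair of histone H2A variants. The sources used here do not give how the alleles were made or whether each sample was a separate animal, and the p-values measure the spread between these samples. The levels are log2 values per probe set, so a difference of 1 is a doubling, and in whole tissue fewer cells of a type and less RNA per cell cannot be told apart.

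The respiratory chain passes electrons from NADH through complex I to ubiquinone, through complex III to cytochrome c and through complex IV to oxygen. The protons pumped on the way drive ATP synthase, a rotary enzyme with a catalytic F1 head and a membrane-embedded Fo part. Most subunits are encoded in the nucleus and a few in mitochondrial DNA, and in the fasting liver this machinery supplies the ATP for gluconeogenesis and takes up the electrons released by fatty acid oxidation.

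Median levels of the 10 arrays lay between 6.43 and 6.46, and array-to-array correlations ran from 0.989 to 0.995. Macroh2a1 was lower by 1.41-fold in double knockout livers (limma adjusted p = 0.00128) with no overlap between the groups, and Macroh2a2 had a log2 difference of -0.20 (limma adjusted p = 0.514) at a mean of 6.22, near background. Whether the probes fall inside the deleted exons was not examined. All 10 hepatocyte markers, such as Alb and Ttr, were high, and their mean per array lay between 13.43 and 13.52. Pancreas markers were uneven, with means of 9.24 and 10.30 in wild-type replicates 4 and 5 and 8.26 and 8.46 in double knockout replicates 1 and 2, against 5.91 to 6.59 in the other 6 arrays. Of 12 macrophage markers, 12 were higher on average in the double knockout group, as were 48.5% of all tested probe sets. Among these markers 2 were called by limma (Cd163 and Marco), 8 had an unadjusted limma p under 0.05 and 3 were without overlap. The same held for 0.884%, 15.1% and 3.9% of all tested probe sets. The mean of the macrophage markers per array ran from 8.81 to 9.15 in wild-type and from 9.06 to 9.39 in double knockout livers.

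Respiratory chain and ATP synthase transcripts were at nearly the same level in both genotypes, and 1 of the 87 genes passed the test. That gene was Cox6b1, a small subunit of complex IV on its intermembrane face, which fell by 0.31 on the log2 scale, or 1.24-fold. The call rule was a limma adjusted p under 0.05, with p-values adjusted over all tested probe sets, of which 0.884% were called, against 1.15% of these genes. The median log2 difference (double knockout minus wild type) was -0.0038 over the 87 genes and -0.0030 over all tested probe sets. Means were higher in double knockout livers for 41 of the genes and lower for 46. The differences ran from -0.31 for Cox6b1 to 0.15 for Ndufaf4, a complex I assembly factor, and 17 of the genes, or 19.5%, differed by more than 0.1 in either direction, against 27.2% of all tested probe sets.

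The arrays measured these genes closely. The median standard deviation within a group was 0.072 for the 87 genes and 0.096 for all tested probe sets. In 63 of the 87 genes, the 95% interval of the log2 difference lay wholly between -0.2 and 0.2, and in 80 it lay between -0.3 and 0.3. At an unadjusted limma p under 0.05 there were 9 genes, 8 lower and 1 higher in double knockout livers, or 10.3% of them, against 15.1% of all tested probe sets. Leaving out 1 array at a time, the lowest numbers were 3 (wild-type replicate 1 left out), 4 (wild-type replicate 2) and 5 (double knockout replicate 1), while all tested probe sets gave 3650, 3202 and 3871 in these fits against 3829 with all arrays.

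**Figure D1:**
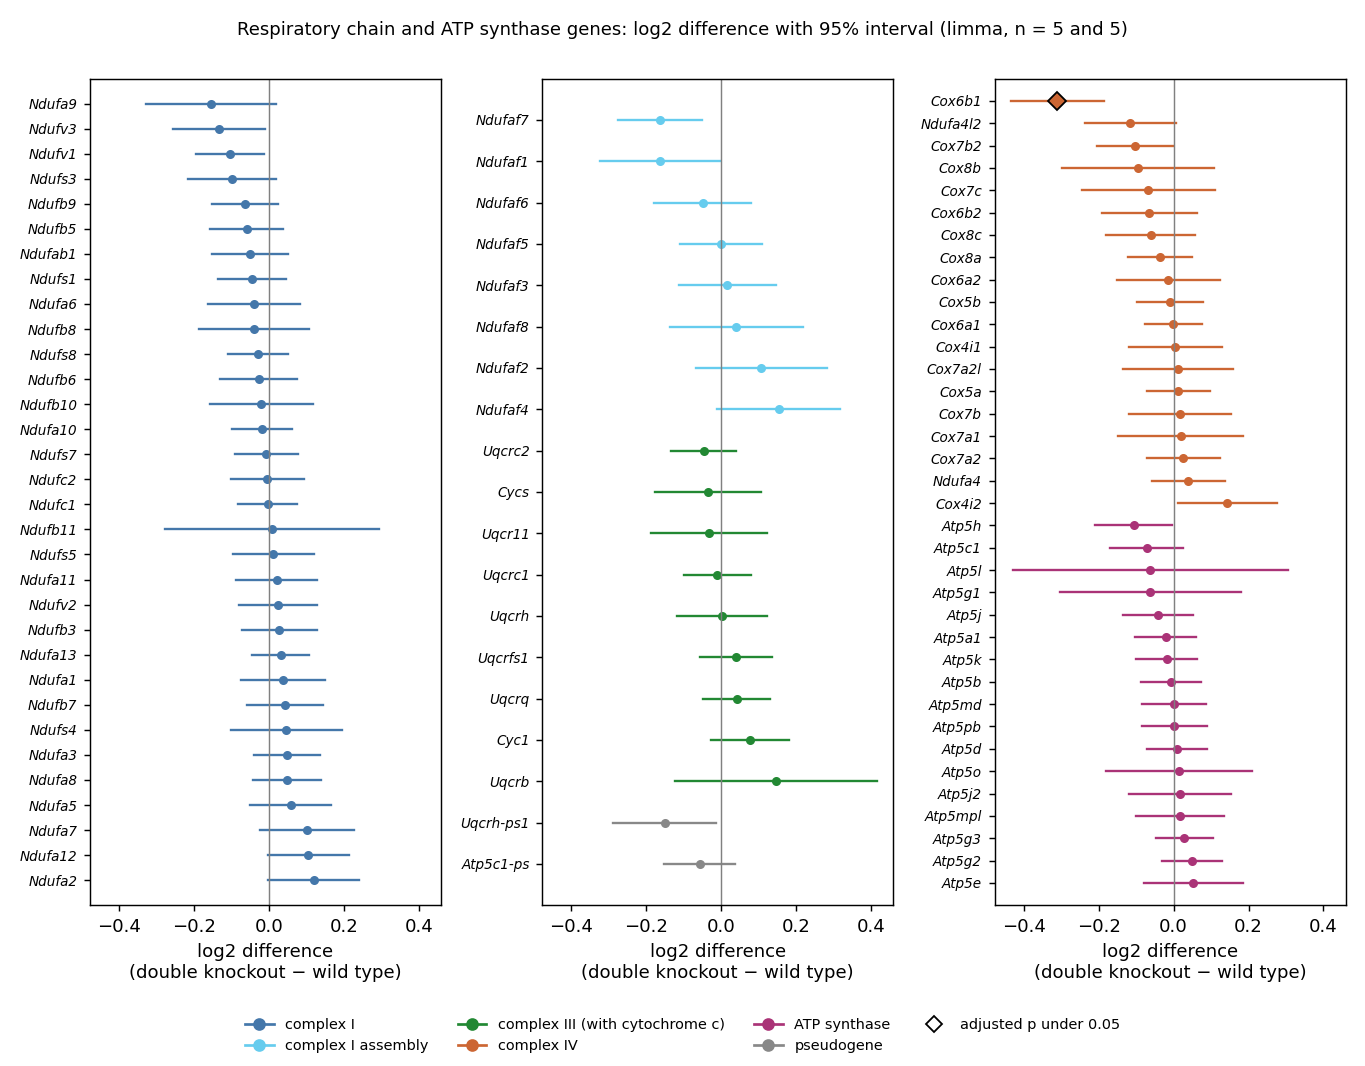
Log2 difference between 5 double knockout and 5 wild-type livers (horizontal axis) for each of the 87 genes, grouped by complex, with points for the difference and lines for the limma 95% interval; a diamond marks a limma adjusted p under 0.05. Most intervals span 0, and Cox6b1, at -0.31, is the gene marked with a diamond.

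Complex IV, cytochrome c oxidase, reduces oxygen to water. Cox6b1 had log2 levels of 11.24, 11.23, 11.12, 11.01 and 11.00 in wild-type replicates 1 to 5 and of 10.74, 10.82, 10.84, 10.87 and 10.78 in double knockout replicates 1 to 5. Every double knockout array lay below every wild-type array, and the group means were 11.12 ± 0.12 and 10.81 ± 0.05 (SD, n = 5 each). The difference of -0.31 (SE 0.06, 95% interval -0.44 to -0.19) had a limma adjusted p = 0.0315. Cox6b1 was the 1 gene among the 87 whose groups did not overlap, which held for 3.9% of all tested probe sets. With 1 array left out, that number was 6 for wild-type replicate 5 (6.9% of the 87 genes, against 6.5% of all tested probe sets), 5 for double knockout replicate 2 (5.75% against 5.61%) and 4 for wild-type replicate 3 (4.6% against 5.33%). It was 2 for replicates 1 and 4 of either genotype (2.3%, against 4.86% to 6.18%).

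The Cox6b1 call was close to its threshold. It held when replicate 4 or 5 of the wild type was left out, and was lost when any of the other 8 arrays was, with differences between -0.34 and -0.28 and limma adjusted p from 0.0239 to 0.0892 over the 10 fits. The lowest wild-type levels of Cox6b1 were those of replicates 4 and 5, whose pancreas marker means were also the highest. When the mean of the pancreas markers entered the fit as a covariate, the difference was -0.33 (limma adjusted p = 0.00968), and without the 4 arrays of highest pancreas markers it was -0.37 with 3 arrays a group (limma adjusted p = 0.0713).

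**Figure D2:**
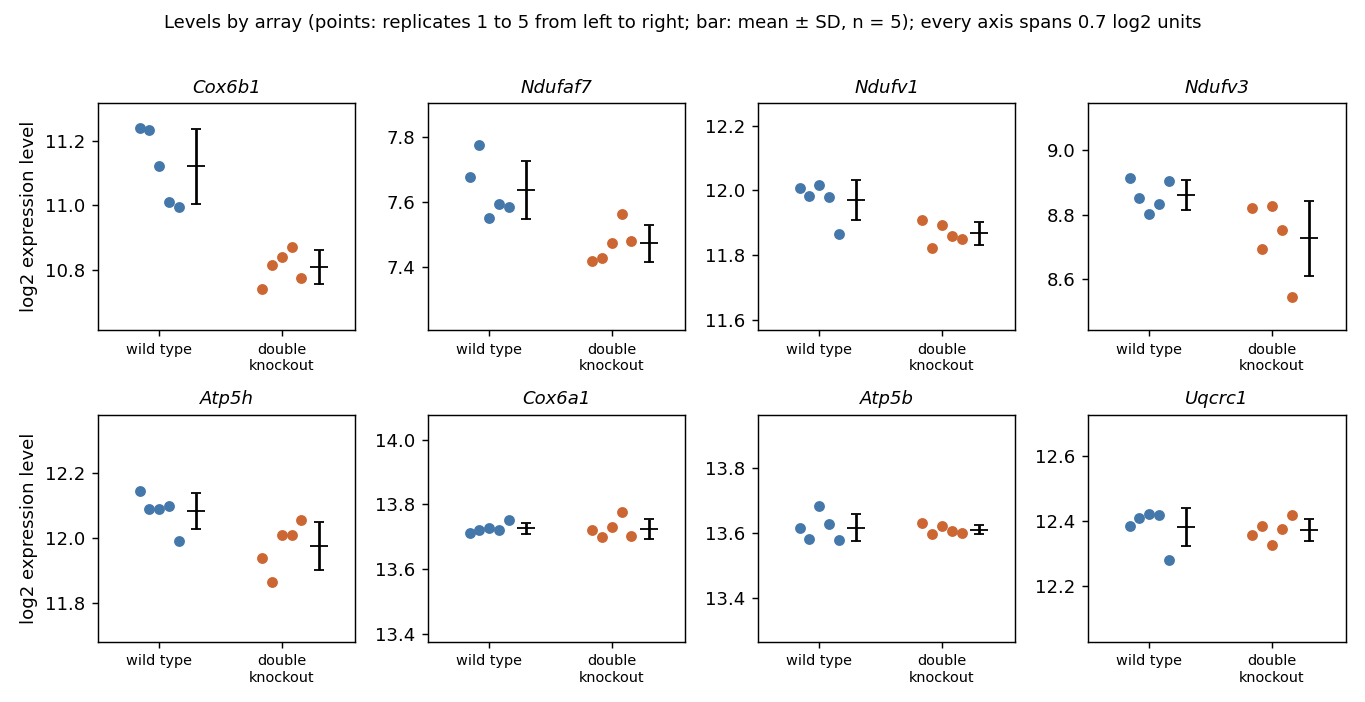
Log2 expression level (vertical axis, the same span in each panel) of 8 genes in wild-type (blue) and double knockout livers (orange), with 1 point per array and bars for the mean ± SD (n = 5). Cox6b1 separates into 11.00 to 11.24 and 10.74 to 10.87, Ndufaf7, Ndufv1, Ndufv3 and Atp5h overlap slightly, and Cox6a1, Atp5b and Uqcrc1 overlap throughout.

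None of the other genes of complex IV was called by limma. Cox6a1, also a nuclear subunit of complex IV, had levels of 13.71, 13.72, 13.73, 13.72 and 13.75 in wild-type and of 13.72, 13.70, 13.73, 13.78 and 13.70 in double knockout replicates 1 to 5, with a 95% interval of -0.08 to 0.08. The log2 differences were 0.01 for Cox5a, -0.01 for Cox5b, 0.02 for Cox7b, 0.03 for Cox7a2, -0.04 for Cox8a and 0.04 for Ndufa4, which was first counted with complex I and is now placed in complex IV. Cox7c had -0.07 at a mean level of 6.09, which is below the guide to background given in the next paragraph. Cox4i1, the general form of subunit IV, had group means of 11.29 and 11.30. Cox7a2l, which helps to join complexes III and IV into supercomplexes, had a log2 difference of 0.01. In complex IV, 3 of 19 genes had an unadjusted p under 0.05, Cox6b1 among them, and the median log2 difference was -0.010.

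Complex IV has isoforms known from muscle, lung, testis and other tissues, and 8 of these genes were listed: Cox4i2, Cox6a2, Cox6b2, Cox7a1, Cox7b2, Cox8b, Cox8c and Ndufa4l2. The 95th percentile of the 1108 olfactory receptor probe sets, 6.54, served as a guide to background, and 5 of the 8 isoforms lay below it, while Cox6a2, Cox7a1 and Cox6b2 lay above. Cox6b2, the paralog of Cox6b1 known from testis, had means of 9.41 ± 0.11 and 9.35 ± 0.08 (SD, n = 5 each), a log2 difference of -0.06 with a 95% interval of -0.19 to 0.06. Cox4i2 had levels of 6.34, 6.36, 6.27, 6.44 and 6.32 in wild-type and of 6.48, 6.71, 6.42, 6.39 and 6.46 in double knockout replicates 1 to 5. The groups overlapped, and its difference of 0.14 was the 1 higher value at an unadjusted limma p under 0.05 (limma adjusted p = 0.289). Without double knockout replicate 2, the highest array, it was 0.09 (limma adjusted p = 0.42). Cox7b2 had levels of 4.04, 4.03, 3.97, 4.16 and 4.14 in wild-type and of 3.95, 4.02, 3.94, 3.92 and 3.98 in double knockout replicates, a difference of -0.10 (limma adjusted p = 0.317). The log2 differences of the other isoforms were -0.12 for Ndufa4l2, -0.09 for Cox8b, -0.06 for Cox8c, -0.01 for Cox6a2 and 0.02 for Cox7a1. Of 10 muscle markers, 6 lay below the guide to background, among them Ckm and Myh4, and their mean per array was between 6.31 and 6.51; 0 were called by limma and 0 had an unadjusted p under 0.05.

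Complex I, NADH dehydrogenase, is the largest of the complexes. Its 32 subunits had a median log2 difference of -0.0044, with 15 higher and 17 lower means, none called by limma and 2 at an unadjusted p under 0.05. The core subunits carry the flavin and the iron-sulfur clusters, and 5 of the 6 measured had lower means in double knockout livers. Ndufv1, which holds the flavin and binds NADH, had levels of 12.01, 11.98, 12.02, 11.98 and 11.87 in wild-type and of 11.91, 11.82, 11.89, 11.86 and 11.85 in double knockout replicates 1 to 5. Wild-type replicate 5 lay among the double knockout arrays and the other 4 wild-type arrays lay above all of these, for a difference of -0.10 (SE 0.04, limma adjusted p = 0.264). Ndufs3, a core subunit of the arm that reaches into the matrix, had 8.86, 8.91, 8.88, 8.75 and 8.87 in wild-type and 8.75, 8.79, 8.89, 8.75 and 8.61 in double knockout replicates, a difference of -0.10 with overlapping groups (limma adjusted p = 0.43). Ndufs1, which carries iron-sulfur clusters, had 10.10, 10.10, 10.23, 10.09 and 10.06 in wild-type and 10.09, 10.05, 10.09, 10.06 and 10.07 in double knockout replicates, a difference of -0.04 with overlapping groups. Ndufs8, Ndufv2 and Ndufs7 had log2 differences of -0.03, 0.02 and -0.01.

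The accessory subunits surround the core and are needed for its assembly or stability. Of 26 measured, 14 had higher and 12 had lower means, with a median log2 difference of 0.0095. Ndufv3 had levels of 8.91, 8.85, 8.80, 8.83 and 8.90 in wild-type and of 8.82, 8.69, 8.83, 8.75 and 8.54 in double knockout replicates 1 to 5. Its groups overlapped, with a difference of -0.13 (SE 0.06, limma adjusted p = 0.286), and no accessory subunit had a lower p. Ndufa2 had 9.73, 9.67, 9.63, 9.69 and 9.67 in wild-type and 9.78, 9.61, 9.83, 9.92 and 9.86 in double knockout replicates, a difference of 0.12 (limma adjusted p = 0.343). Double knockout replicate 2 was the lowest of all 10 arrays for this gene, and the other 4 double knockout arrays were the 4 highest. Ndufa12 had 8.62, 8.59, 8.64, 8.55 and 8.48 in wild-type and 8.67, 8.63, 8.61, 8.70 and 8.80 in double knockout replicates, a difference of 0.10 (limma adjusted p = 0.344), and its second probe set, with means of 6.45 and 6.34 below the guide to background, had -0.11. Ndufa11 also had probe sets of opposite sign, with 0.02 on the one of highest mean and -0.22 on the other (limma adjusted p = 0.303).

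Ndufa9, a subunit at the junction of the matrix and membrane arms, fell into high and low arrays that did not follow genotype fully. Its levels were 11.96, 11.94, 12.03, 12.07 and 11.63 in wild-type and 11.73, 11.95, 11.72, 11.74 and 11.72 in double knockout replicates 1 to 5. Wild-type replicates 1 to 4 and double knockout replicate 2 lay between 11.94 and 12.07, and the other 5 arrays between 11.63 and 11.74, for a difference of -0.15 (SE 0.08, limma adjusted p = 0.395). Among the rest, Ndufa7 had a log2 difference of 0.10, Ndufa5 0.06, Ndufa3 and Ndufa8 0.05 each, Ndufa1 0.04, Ndufa13 0.03, Ndufa6 -0.04 and Ndufa10 -0.02. Ndufab1, the mitochondrial acyl carrier protein, had -0.05, and Ndufs4, a subunit whose loss in mice is a model of Leigh syndrome, had 0.05. Of the 8 Ndufb subunits, which lie in the membrane arm, 5 had lower means and the differences ran from -0.06 for Ndufb9 and Ndufb5 to 0.04 for Ndufb7. Ndufb11 had the widest interval of complex I, -0.28 to 0.29.

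The assembly factors of complex I are not part of the finished enzyme. Differences of the 8 Ndufaf genes measured here were larger in size than those of the subunits. Their median absolute log2 difference was 0.078, against 0.042 for the 32 subunits and 0.056 for all tested probe sets. They were also measured less closely, with a median SE of 0.067 against 0.048 for the subunits and 0.059 for all tested probe sets. The contrast in size was not tested, and the 36 other assembly factors, from a list outside the 87 genes, had a median absolute difference of 0.045. None of the 8 Ndufaf genes was called by limma, and 2 had an unadjusted p under 0.05. Ndufaf7, a methyltransferase that acts on a core subunit, had levels of 7.68, 7.78, 7.55, 7.59 and 7.58 in wild-type and of 7.42, 7.43, 7.47, 7.56 and 7.48 in double knockout replicates 1 to 5. The groups overlapped only in wild-type replicate 3 and double knockout replicate 4, and the difference of -0.16 (SE 0.05) had a limma adjusted p = 0.158. Ndufaf1 had 9.64, 9.60, 9.48, 9.70 and 9.33 in wild-type and 9.38, 9.21, 9.44, 9.46 and 9.46 in double knockout replicates, a difference of -0.16 (SE 0.07, limma adjusted p = 0.321), with wild-type replicate 5 among the double knockout arrays. Ndufaf4 went the other way, with 9.32, 9.25, 9.54, 9.33 and 9.40 in wild-type and 9.64, 9.27, 9.62, 9.53 and 9.54 in double knockout replicates, a difference of 0.15 with overlapping groups (SE 0.08, limma adjusted p = 0.369). Ndufaf2, Ndufaf8 and Ndufaf3 had differences of 0.11, 0.04 and 0.02, Ndufaf6 had -0.05, and Ndufaf5, at a mean of 5.80 in both groups, lay below the guide to background.

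Complex III, which passes electrons from ubiquinol to cytochrome c, had a median log2 difference of 0.0020 with cytochrome c included, 5 of 9 means higher, no call by limma and no unadjusted p under 0.05. Cyc1, the cytochrome c1 subunit, had levels of 11.69, 11.77, 11.75, 11.76 and 11.77 in wild-type and of 11.90, 11.69, 11.82, 11.82 and 11.90 in double knockout replicates 1 to 5. Apart from double knockout replicate 2, every double knockout array lay above the wild-type arrays, and the difference of 0.08 had a limma adjusted p = 0.501. Uqcrb, a small subunit near the ubiquinone site, had 12.36, 12.48, 12.49, 12.38 and 12.50 in wild-type and 12.55, 12.31, 12.49, 12.46 and 13.14 in double knockout replicates. Its difference of 0.15 (SE 0.12, limma adjusted p = 0.638) came with 1 high array, double knockout replicate 5. The core protein Uqcrc2 had 12.66, 12.62, 12.60, 12.62 and 12.52 in wild-type and 12.56, 12.53, 12.58, 12.60 and 12.51 in double knockout replicates, a difference of -0.05 with overlapping groups. Uqcrfs1, the Rieske iron-sulfur protein, and Uqcrq had 0.04 each, Uqcr11 -0.03 and Uqcrc1 -0.01, and Uqcrh had means of 9.89 and 9.90.

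Cycs, the soluble electron carrier cytochrome c, was on 5 probe sets, of which 2 held identical values on all 10 arrays. The probe set of highest mean had a log2 difference of -0.04, and the others had -0.06, -0.06, -0.10 and -0.10, none called by limma and none at an unadjusted p under 0.05. Over all 87 genes, 10 had further probe sets, 13 in number, and 0 of these were called by limma, while those of Ndufa11 and Ndufa12 had an unadjusted p under 0.05.

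ATP synthase had a median absolute log2 difference of 0.021, a median difference of 0.0003 and 9 of 17 means higher. Complex IV without its 8 isoforms of other tissues had a median absolute difference of 0.017. None of the 17 ATP synthase genes was called by limma, and 1 had an unadjusted p under 0.05. In the F1 head, Atp5b, the catalytic beta subunit, had means of 13.62 and 13.61 with a 95% interval of -0.09 to 0.07. Atp5a1, the alpha subunit, had levels of 12.54, 12.56, 12.58, 12.58 and 12.48 in wild-type and of 12.52, 12.51, 12.57, 12.50 and 12.54 in double knockout replicates 1 to 5, which overlapped throughout. Atp5c1, the gamma subunit of the rotor shaft, had 8.07, 8.15, 8.19, 8.17 and 8.03 in wild-type and 8.09, 7.97, 8.05, 8.05 and 8.09 in double knockout replicates, an overlapping difference of -0.07 (limma adjusted p = 0.50). Atp5e, the epsilon subunit, had 9.28, 9.23, 9.40, 9.46 and 9.42 in wild-type and 9.26, 9.41, 9.39, 9.50 and 9.49 in double knockout replicates, a difference of 0.05, and Atp5d, the delta subunit, had 0.01.

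In the Fo part and the outer stalk, Atp5h, the stalk's d subunit, had levels of 12.14, 12.09, 12.09, 12.10 and 11.99 in wild-type and of 11.94, 11.86, 12.01, 12.01 and 12.06 in double knockout replicates 1 to 5. All wild-type arrays but replicate 5 lay above all double knockout arrays, and the difference of -0.11 (SE 0.05) had a limma adjusted p = 0.315. Its second probe set had -0.14. Subunit c, of which the membrane ring is built, is encoded by the genes Atp5g1, Atp5g2 and Atp5g3, whose log2 differences were -0.06, 0.05 and 0.03. Atp5g2 had 12.58, 12.59, 12.56, 12.58 and 12.60 in wild-type and 12.55, 12.66, 12.66, 12.63 and 12.64 in double knockout replicates, with double knockout replicate 1 the lowest of all arrays and the other 4 the highest (limma adjusted p = 0.594). Atp5j, a stalk subunit, had 9.57, 9.55, 9.51, 9.56 and 9.46 in wild-type and 9.54, 9.39, 9.48, 9.49 and 9.54 in double knockout replicates, an overlapping difference of -0.04. Atp5pb, the b subunit of the stalk, and Atp5md had the same mean in both groups to 2 decimals, at 11.49 and 12.26. Atp5o, the protein that joins the stalk to the F1 head, Atp5j2 and Atp5mpl had 0.02 each, Atp5k -0.02 and Atp5l -0.06, the last with the widest interval of all 87 genes, -0.43 to 0.31. Atp5j2 lay below the guide to background, at a mean of 6.38. The inhibitor of ATP synthase, listed as Atpif1 and so outside the 87 genes, had -0.006.

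The pseudogenes Uqcrh-ps1 and Atp5c1-ps lay below the guide to background, with means of 4.68 and 4.41 in wild-type livers, and had log2 differences of -0.15 (limma adjusted p = 0.283) and -0.06. In all, 76 of the 87 genes lay above that guide. Of the 9 genes with an unadjusted p under 0.05, 3 lay below it, namely Cox4i2, Cox7b2 and Uqcrh-ps1, and the others were Cox6b1, Ndufaf7, Ndufaf1, Ndufv1, Ndufv3 and Atp5h.

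These genes also varied between arrays within a genotype. Double knockout replicate 2 held the lowest level of the 10 arrays for 28 of the 87 genes, or 32.2%, against 10.6% of all tested probe sets, and 68 of the 87 genes lay below their own mean there. These 28 were 14 complex I subunits, 5 of complex III with cytochrome c, 4 of ATP synthase, 3 of complex IV, 1 assembly factor and 1 pseudogene. The median deviation of the 87 genes from their own means was -0.049 in this array and between -0.020 and 0.023 in the other 9, while that of all tested probe sets lay between -0.0056 and 0.0070 in every array. Wild-type replicate 5 came next with 13 lowest levels (14.9%, against 10.4% of all tested probe sets). Double knockout replicates 1 and 5 had 11 each (12.6%, against 9.26% and 12.1% of all tested probe sets). Double knockout replicate 2 also had the highest macrophage marker mean, 9.39, and a pancreas marker mean of 8.46, whose part in its low levels was not tested. Without it the median log2 difference of the 87 genes was 0.0046.

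**Figure D3:**
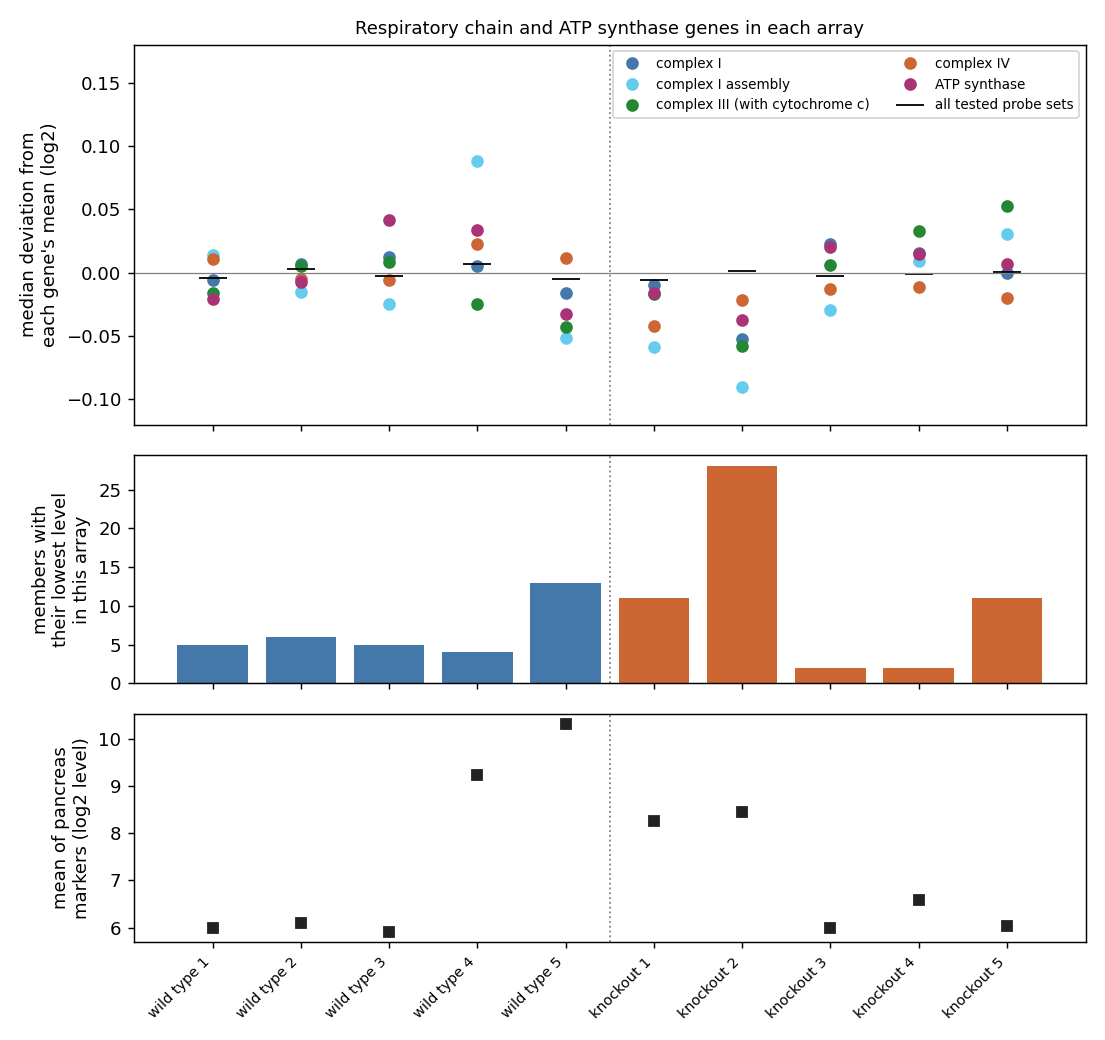
Upper panel, the median deviation of the genes of each complex from their own means in each array (log2), with short black lines for all tested probe sets; middle panel, the number of the 87 genes with their lowest level in that array; lower panel, the mean log2 level of the pancreas markers. Double knockout replicate 2 holds 28 lowest levels, and the pancreas markers are highest in wild-type replicates 4 and 5 and double knockout replicates 1 and 2.

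Other genes of the pathway were examined from fixed lists, and none of them was called by limma. Of all tested probe sets, 0.884% were called, 15.1% had an unadjusted limma p under 0.05 and 48.5% had higher means in double knockout livers. All 4 subunits of complex II, which feeds electrons from succinate, had lower means, with log2 differences of -0.10 for Sdha, -0.07 for Sdhd and -0.04 for Sdhb and Sdhc, and 0 had an unadjusted p under 0.05. Of 36 other assembly factors 26 had lower means, with a median of -0.022, and 4 lower and 3 higher at an unadjusted p under 0.05. The lowest p values among these were those of Coa5, a complex IV assembly factor, with -0.18 (limma adjusted p = 0.121), and Taco1, a translational activator of a mitochondrial complex IV subunit, with -0.16 (limma adjusted p = 0.165). Of 18 regulators of mitochondrial biogenesis and gene expression 9 had higher means. Pprc1, a coactivator related to PGC-1alpha, had 0.17 (limma adjusted p = 0.119) and Polrmt, the mitochondrial RNA polymerase, had 0.13 (limma adjusted p = 0.191). Of these 18, 3 higher and 1 lower had an unadjusted p under 0.05. The lower one, Polg2, had the largest difference of the list in size, -0.27 (limma adjusted p = 0.194). Of 12 mitochondrial chaperones and proteases 5 had higher means, and again 3 higher and 1 lower had an unadjusted p under 0.05. The chaperonin partners Hspe1 and Hspd1 had 0.26 (limma adjusted p = 0.083) and 0.12 (limma adjusted p = 0.217). The groups did not overlap for Pprc1, Polrmt, Hspe1 and Hspd1, all higher, and for Coa5, lower, as for 3.9% of all tested probe sets. These were 2 of the 18 regulators, 2 of the 12 chaperones and proteases and 1 of the 36 assembly factors. None of the 13 subunits encoded in mitochondrial DNA had a probe set of its own, so they were not analysed here.

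The genome around Cox6b1 was read from the RefSeq gene order of GRCm38.p6, after the call was seen. Etv2, the next measured gene on one side and a transcription factor of blood vessel formation, had means of 6.54 ± 0.05 and 6.38 ± 0.04 (SD, n = 5 each), a log2 difference of -0.16 (SE 0.04, limma adjusted p = 0.0895), close to the guide to background. Upk1a, the next on the other side, had -0.04, and Zbtb32, Kmt2b, Haus5 and 2200002J24Rik had -0.02, -0.03, -0.01 and -0.07. None of the 87 genes lay within 5 Mb of Macroh2a1 or Macroh2a2, and 6 were on the chromosome of each.

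Promoter sequences of the RefSeq build GRCm38.p6, from 250 bases before to 50 after the start of a gene, were found for 70 of the 87 genes, 75 sequences in all. They were searched on both strands for motifs of 3 factors known to act on respiratory genes. These were GCGC, any 2 bases and GCGC for NRF1, CCGGAAG for ETS factors such as GABPA, and AAGATGGCG for YY1, whose matches do not overlap in the sequences shown. NRF1 motifs were in 24% of the promoters of these genes against 6.23% of all 32851 promoters of the table, ETS motifs in 22.7% against 8.86%, and YY1 motifs in 9.33% against 1.4%. At least 1 of the motifs was in 37 of the 75, or 49.3%, against 14.9% of all. By complex, NRF1 shares ran from 7.14% of complex IV promoters to 33.3% of those of ATP synthase. ETS shares ran from 12.9% in complex I to 40% in complex III, and YY1 motifs were in 0 of the 5 complex III and 0 of the 14 complex IV promoters. All promoters of the table were used without matching for base composition, so the contrast is not specific to the function of these genes. The factors' own transcripts had log2 differences of 0.04 for Nrf1, -0.03 for Gabpa, 0.06 for Gabpb1 and 0.05 for Yy1, none called by limma and none at an unadjusted p under 0.05. A match describes letters in a window and not binding.

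The sequences of 5 promoters are shown, 5′ to 3′ on the strand of the gene, with motif matches in capitals. Cox6b1 is shown as the called gene, Cox6a1 as a subunit of the same complex with equal levels in both groups, Atp5h as the ATP synthase gene of lowest p, Uqcrc1 for its pair of NRF1 matches and Ndufs7 for its YY1 match.
Cox6b1, chr7:30626065-30626364, minus strand: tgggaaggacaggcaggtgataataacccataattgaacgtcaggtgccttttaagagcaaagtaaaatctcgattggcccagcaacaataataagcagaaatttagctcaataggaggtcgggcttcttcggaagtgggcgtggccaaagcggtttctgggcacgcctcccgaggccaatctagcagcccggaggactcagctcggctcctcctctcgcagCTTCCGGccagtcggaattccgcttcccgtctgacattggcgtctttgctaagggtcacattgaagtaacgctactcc
Cox6a1, chr5:115348909-115349208, minus strand: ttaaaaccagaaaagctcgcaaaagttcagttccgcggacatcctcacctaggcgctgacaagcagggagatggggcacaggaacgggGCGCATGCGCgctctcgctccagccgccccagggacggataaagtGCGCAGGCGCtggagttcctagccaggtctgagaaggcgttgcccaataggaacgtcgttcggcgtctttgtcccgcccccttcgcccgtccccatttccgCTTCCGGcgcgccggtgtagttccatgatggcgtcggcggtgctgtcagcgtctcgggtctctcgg
Atp5h, chr11:115419870-115420169, minus strand: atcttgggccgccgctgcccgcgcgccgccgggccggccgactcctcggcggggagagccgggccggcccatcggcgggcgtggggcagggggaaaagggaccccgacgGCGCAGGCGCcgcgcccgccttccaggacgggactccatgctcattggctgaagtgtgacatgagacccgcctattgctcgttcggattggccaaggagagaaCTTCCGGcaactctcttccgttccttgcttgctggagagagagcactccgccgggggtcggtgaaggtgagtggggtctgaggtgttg
Uqcrc1, chr9:108936398-108936697, plus strand: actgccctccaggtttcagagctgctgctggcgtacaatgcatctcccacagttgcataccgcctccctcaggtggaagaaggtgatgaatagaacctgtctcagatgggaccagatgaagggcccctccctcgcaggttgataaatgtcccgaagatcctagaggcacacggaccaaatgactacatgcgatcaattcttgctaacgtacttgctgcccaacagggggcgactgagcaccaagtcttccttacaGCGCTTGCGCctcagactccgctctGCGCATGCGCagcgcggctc
Ndufs7, chr10:80249199-80249498, plus strand: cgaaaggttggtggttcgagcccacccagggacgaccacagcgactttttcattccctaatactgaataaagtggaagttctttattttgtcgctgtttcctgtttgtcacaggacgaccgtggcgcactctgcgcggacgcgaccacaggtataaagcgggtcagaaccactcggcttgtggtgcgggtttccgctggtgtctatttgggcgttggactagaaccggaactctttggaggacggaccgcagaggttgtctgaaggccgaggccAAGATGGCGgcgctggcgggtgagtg

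Cox6b1 and Cox6a1 both held an ETS match shortly before the start, at -28 and -16, counted from the start site. Cox6a1 also held NRF1 matches at -162 and -117, and the Cox6b1 window held none. Among the 14 complex IV promoters, that of Cox6a1 was the 1 with an NRF1 match (7.14%, against 6.23% of all promoters). Atp5h held an NRF1 match at -141 and an ETS match at -38. The NRF1 matches of Uqcrc1 lay after its start, at 6 and 31, and so did the YY1 match of Ndufs7, at 25. The log2 differences of these 5 genes were -0.31 for Cox6b1, -0.11 for Atp5h, -0.01 for Uqcrc1 and Ndufs7 and under 0.01 in size for Cox6a1.

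**Figure D4:**
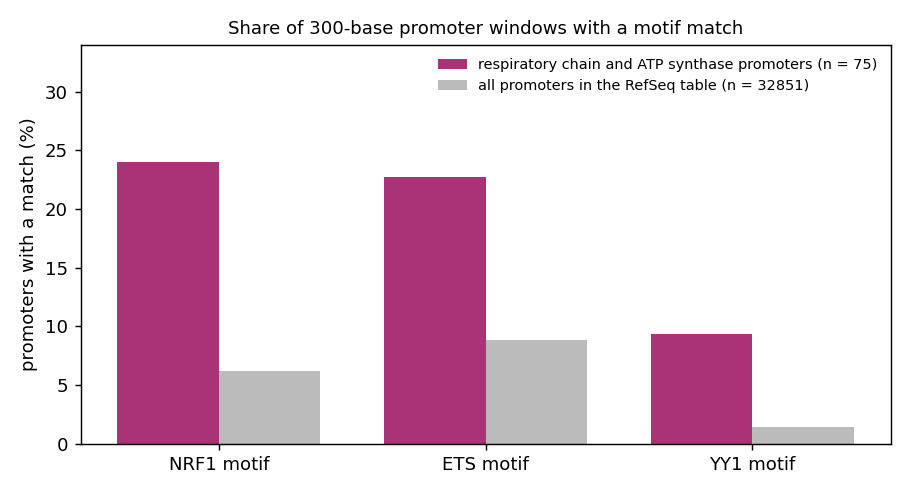
Percent of promoter windows of 300 bases with a match to each motif (vertical axis) for the 75 promoters of the respiratory chain and ATP synthase genes and for all 32851 promoters of the RefSeq table. The shares are 24%, 22.7% and 9.33% in the first set and 6.23%, 8.86% and 1.4% in the second for NRF1, ETS and YY1.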

How the data were processed

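The authors deposited log2 expression levels per probe set for 10 arrays, made, per the submitters' processing notes, in Affymetrix Expression Console. The sources used here do not give its version, algorithm or settings. Scanner files, detection calls and scan dates were not analysed here. Precision is limited by the number of arrays.

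Gene symbols came from the platform's annotation. Of 41345 rows, the 25335 with a symbol were tested without further normalization. A gene was represented by its probe set of highest mean.

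Genotypes were compared with limma 3.58.1 in R 4.3.3 (moderated two-sided test on group alone, 8 residual and 3.96 prior degrees of freedom) across all tested probe sets, with Benjamini-Hochberg adjustment and a threshold of 0.05. On simulated data the test recovered 47.4% of 78 probe sets given a log2 change of 0.3, 90.6% of 64 given 0.5 and 98.3% of 58 given 1. Its noise was normal and independent between probe sets and few probe sets were changed, so recovery in the real data may differ.

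Genes and lists were chosen with earlier results of these data known. Every called gene and the 3 of lowest p in each of 7 role groups (core, accessory and assembly genes of complex I, complexes III and IV, F1 and Fo) were given on every array. Tissue isoforms, genes whose probe sets differ in sign by over 0.1, the 2 of lowest p in a pathway list, the knocked-out genes and other members were given by their difference or group means. Ndufa9, Cox6a1 and the neighbours of Cox6b1 were singled out after their values were seen. Fat, endothelial and erythroid marker lists were also measured. Motif matches were counted with Python 3.11.15.

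Alternatives changed the moderation (trend, robust), array weights, normalization, the filter on low levels, the rows tested, the row per gene, covariates, the replicate block, thresholds, the members and the arrays used.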

Additional observations from a re-analysis of the deposited data

Results flagged for a closer look

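In 15 of 174 groups of 5 arrays (8.62%; chance flags about 1 in 20), the extreme array stood apart from the other 4, by a gap over 0.71 of the range. Double knockout replicate 2 was the array for Ndufa9 (11.95 against 11.72 to 11.74), Ndufc2 (12.27 against 12.38 to 12.42), Cycs (11.35 against 11.57 to 11.62) and Cox4i2 (6.71 against 6.39 to 6.48). Wild-type replicate 5 was low for Ndufa9 (11.63 against 11.94 to 12.07), Ndufv1 (11.87 against 11.98 to 12.02) and Uqcrc1 (12.28 against 12.38 to 12.42). Wild-type replicate 1 was high for Ndufb5 (10.67) and low for Cyc1 (11.69), and wild-type replicate 3 was high for Ndufs1 (10.23) and Cox8c (5.04). Double knockout replicate 3 was low for Ndufb9 (12.21), replicate 4 was high for Ndufc1 (8.79) and Cox6b2 (9.48), and replicate 5 was high for Uqcrb (13.14 against 12.31 to 12.55). The causes were not tested.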

How the results depend on the processing

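The direction of Cox6b1 held in all 22 fits, with limma adjusted p from 0.00968 to 0.0976. The number of called genes, 1, became 0 at a threshold of 0.01, with every row tested (0), with the replicate block (0), without the 4 arrays of highest pancreas markers (0) and in 8 of the 10 fits without an array (0 to 1). Over all rows, 224 calls became 75 with every row tested, 76 with the block, 68 without the 4 arrays and 64 to 253 without single arrays. The number at an unadjusted p under 0.05, 9, became 5 with the replicate block, 4 with subunits only and 3 to 9 without single arrays. The number without overlap, 1, became 2 with quantile normalization applied again (2.3% of the genes, against 4.06% of all tested probe sets), 1 to 6 without single arrays (1.15% to 6.9%, against 4.86% to 6.5%), and 18 (20.7% of the genes, against 19.0% of all tested probe sets) without the 4 arrays. Same-numbered arrays of the genotypes had correlations of their deviations from -0.48 to 0.13. The labels give no pairing beyond the number, and whether such arrays shared a batch was not tested. The median log2 difference of complex IV, -0.0103, became 0.0045 with the filter on low levels, 0.0020 with subunits only and -0.0287 to -0.0044 without single arrays. All medians stayed between -0.0287 and 0.036. Of 438 fits of the other 20 genes given on every array, 1 reversed, Ndufa12 at -0.0032 with the mean of a gene's rows, its 2 probe sets being of opposite sign, the second below the guide to background. The other causes were not tested.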
